A study of Mus musculus with 4 samples.

Results

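Potassium channel genes were taken as the autosomal protein-coding genes with a symbol that begins with Kcn and a total of 10 or more counts over 4 RNA-seq libraries of mouse hearts at postnatal day 7 (P7). The count table held 24454 genes, of which 98 had such a symbol, 92 of these were autosomal and protein-coding, and 67 reached the total. The measured total thus chose the members, without regard to condition. *Kcnmb2* (2, 0, 3 and 5 counts in WH7, WH8, WH9 and WH10) and *Kcnh7* (2, 1, 2 and 5 counts) lay just inside this limit, and *Kcns1* (3, 2, 2 and 2 counts) just outside it.

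The libraries WH7 and WH8 were labeled Ctrl, and WH9 and WH10 were labeled *miR-128*OE. By the study's methods, *miR-128*OE mice carried *α-MHC*-tTA and *miR-128*TetRE, a Tet-off pair in which the α-myosin heavy chain promoter limits the induced *miR-128* to cardiomyocytes and doxycycline represses it, while Ctrl mice carried *miR-128*TetRE without the tTA transgene. Both conditions therefore had the *miR-128*TetRE allele, and the mice were of C57BL/6 background. The labels give hearts as the tissue and do not say whether each library came from a separate animal, so p-values measure the spread between these libraries. The totals ran from 8096870 counts in WH8 to 14359838 in WH10. *Xist* had 14543 and 11339 counts in the Ctrl libraries against 94 and 132 in the *miR-128*OE libraries, and the Y-linked *Ddx3y* had 13 and 7 against 1442 and 1768, so sex and genotype cannot be told apart here.

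Potassium channels set the resting potential of cardiomyocytes and carry the outward currents that end the action potential. Voltage-gated channels open on depolarization and are built from several pore subunits, with accessory subunits that change their gating or traffic. Inward rectifiers hold the resting potential, two-pore-domain channels leak potassium at rest, and calcium-activated channels follow intracellular calcium. In the mouse heart, transient and ultrarapid outward currents dominate repolarization, and the balance of channel subunits shifts between birth and adulthood. A microRNA represses transcripts whose 3′UTR pairs with its seed.

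The mature *miR-128-3p* (RefSeq, GRCm38.p6) is encoded at chr1:128202404-128202424 on the plus strand and at chr9:112118644-112118664 on the minus strand. It is shown because its seed, bases 2 to 8 in capitals, defines the sites searched.
miR-128-3p: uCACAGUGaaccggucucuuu

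Matches to this seed were searched on the transcript strand of 3′UTRs as CACTGTG or ACTGTGA, and an 8-base match that holds both was counted once. Among the channel genes that differed between the conditions, 4 held such a match. Each is printed with its flanks, with the matched bases in capitals, from the 3′UTR of 1 transcript in GRCm38.
Kcnd2, chr6:21728813-21728819, plus strand: aagtcgacCACTGTGtacattta
Kcne4, chr1:78819088-78819095, plus strand: cactcattCACTGTGAggttctgg
Kcnh2, chr5:24319983-24319989, minus strand: atgctgccCACTGTGgacatgtg
Kcnab1, chr3:65376720-65376726, plus strand: gttgctacCACTGTGcaccctga

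Of the 67 potassium channel genes, 48 were high enough for the test and 19 were too low. With the quasi-likelihood test of edgeR and p-values adjusted by Benjamini-Hochberg over 14266 genes, 8 of the 48 were higher in *miR-128*OE hearts (16.7%) and 3 were lower (6.25%). Over all genes tested, 16.5% were higher and 15.0% were lower. The higher genes were *Kcnk3*, *Kcnj2*, *Kcng2*, *Kcnj11*, *Kcnh2*, *Kcnd2*, *Kcne4* and *Kcnn4*, and the lower genes were *Kcnip2*, *Kcnn1* and *Kcnab1*. The share of higher genes was near that of all genes, and the median log2 fold change of the 48 was -0.0074 against -0.014 for all genes tested. Without WH8, the library of lowest depth and lowest atrial markers, 7 were higher and 5 were lower, as *Kcne4* and *Kcnn4* lost the call, *Kcnq1* gained a higher one and *Kcnj3* and *Kcnj15* gained a lower one. Without WH9 there were 4 higher and 1 lower, and without WH10 6 higher and 1 lower, while the calls over all genes dropped from 2347 higher and 2143 lower to 897 and 667 without WH9 and to 1265 and 1020 without WH10. Single genes ran from -1.41 (*Kcnrg*, not past the threshold of 0.05) to 1.28 (*Kcnn4*) on this scale. *Kcnrg* passed the filter on low counts through the Ctrl libraries alone.

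**Figure D1:**
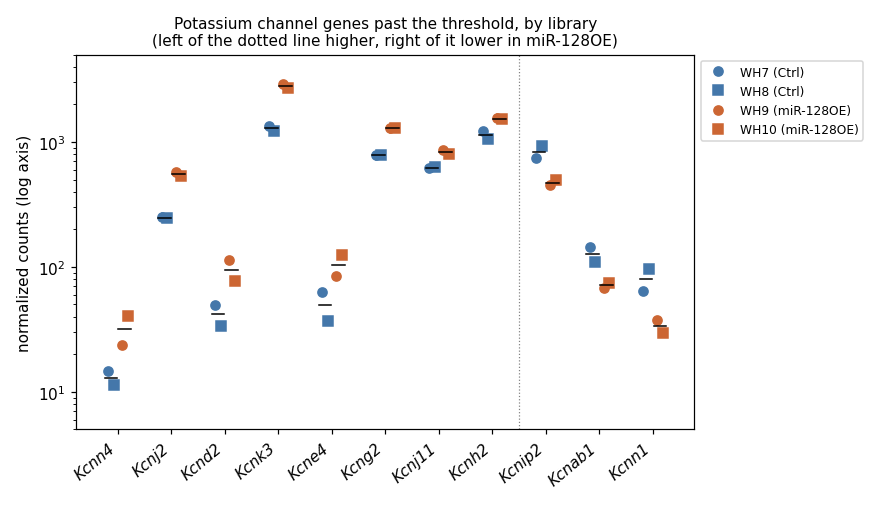
Normalized counts (log axis) of the 11 potassium channel genes past the threshold, with each library as a point and the mean of each condition as a line. Both *miR-128*OE libraries lay above both Ctrl libraries for the 8 genes on the left and below them for the 3 on the right, over levels from 11.3 (*Kcnn4* in WH8) to 2908 (*Kcnk3* in WH9).

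Values given below as normalized counts were scaled by TMM factors to the mean effective library size. The 2 *miR-128*OE libraries lay above both Ctrl libraries for 14 of the 48 genes and below both for 12, against 33.7% and 34.4% of all genes tested. Abundant and rare channel genes differed in their median. Of the 16 with a mean of at least 100 normalized counts, 5 were higher, 1 was lower and the median log2 fold change was 0.26, where all 10267 genes at such levels had 21.2% higher, 16.5% lower and a median of 0.029. The other 32 had 3 higher, 2 lower and a median of -0.22, near the median of -0.21 for all 3999 genes at those levels. Summed over all 67 genes, the normalized counts were 10992 and 10686 in Ctrl hearts against 13610 and 13628 in *miR-128*OE hearts. These differences between lists were not tested.

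The classes were compared by their calls and medians. Among the 14 tested Kv1 to Kv4 and KCNQ pore subunits, 1 was higher and 0 were lower, and their median log2 fold change was -0.11. The median of the 11 tested inward rectifiers was 0.23, and of them 2 were higher and 0 lower. Of the 4 tested two-pore-domain channels, 1 was higher and 0 were lower, and their median was 0.15. For the 9 tested accessory subunits of voltage-gated channels the median was -0.24, and 1 was higher and 2 lower. The 8 tested calcium- and sodium-activated channels and beta subunits had 1 higher and 1 lower gene and a median of -0.14. The EAG, ERG and ELK pores and the silent subunits had 1 gene tested each, *Kcnh2* and *Kcng2*, and both were higher. The lower calls of edgeR lay in accessory subunits (22.2% of the 9 tested) and in calcium- and sodium-activated channels and beta subunits (12.5% of the 8 tested). Over all genes tested, 15.0% were lower and 16.5% were higher. At an unadjusted p under 0.05, 1 gene of the Kv1 to Kv4 and KCNQ pores (*Kcna2*) and 0 genes of the other classes without a lower call were lower, and DESeq2 called 0 lower in each of them. No class was tested against another.

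The fast transient outward current of the mouse heart is carried by the Kv4 pores KCND2 and KCND3, to which KCNIP2 binds as an accessory subunit that raises their surface expression. *Kcnip2* (chr19:45792346-45816422) had 741 and 928 normalized counts in WH7 and WH8 and 450 and 496 in WH9 and WH10. Both *miR-128*OE values were below both Ctrl values, with a log2 fold change of -0.81 ± 0.12 (SE, 2 libraries against 2, edgeR adjusted p = 0.00122). *Kcnd2* (chr6:21215346-21729805) went the other way, with 49.4 and 33.9 normalized counts in Ctrl hearts and 113 and 76.5 in *miR-128*OE hearts. Its groups did not overlap, and its log2 fold change was 1.14 ± 0.29 (edgeR adjusted p = 0.0152), from 54, 24, 114 and 91 counts as deposited. Without WH9 the value was 0.86 and lost the call (edgeR adjusted p = 0.156). *Kcnd3* had 35.7 and 31.1 normalized counts in Ctrl hearts and 14.9 and 26.9 in *miR-128*OE hearts. It did not pass the threshold (log2 fold change -0.67, 95% interval -1.51 to 0.18, edgeR adjusted p = 0.207).

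Within each library, these opposite differences moved the share of counts between the subunits, which does not depend on the scaling of the libraries. *Kcnd2* made up 58.1% of the counts on *Kcnd2* and *Kcnd3* in WH7 (exact Clopper-Pearson 95% interval 47.4 to 68.2) and 52.2% in WH8 (36.9 to 67.1). It made up 88.4% in WH9 (81.5 to 93.3) and 74.0% in WH10 (65.3 to 81.5). Both *miR-128*OE shares were above both Ctrl shares, while the interval of WH10 overlapped those of WH7 and WH8. Of the counts on *Kcnd2* and *Kcnip2*, *Kcnd2* took 6.25% and 3.52% in Ctrl hearts and 20.1% and 13.4% in *miR-128*OE hearts. The intervals take each read as independent, which was not checked, and leave out the spread between libraries.

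The pores of the slow transient and ultrarapid currents showed smaller differences. *Kcna4*, the Kv1.4 pore of the slow transient current, had 53.9 and 52.3 normalized counts in Ctrl hearts and 53.5 and 52.2 in *miR-128*OE hearts, with a 95% interval of -0.57 to 0.54 for its log2 fold change. *Kcna5*, the Kv1.5 pore of the ultrarapid current, had 350 and 324 against 392 and 343, with an interval of -0.15 to 0.38. The conditions overlapped for both genes and neither passed the threshold. For these genes edgeR and DESeq2 made 0 calls, also at an unadjusted p under 0.05 in edgeR.

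*Kcng2* encodes Kv6.2, a silent subunit that forms no channel alone and joins pores of another Kv family. It had 783 and 791 normalized counts in WH7 and WH8 and 1288 and 1300 in WH9 and WH10. The spread within each condition was small beside the difference, and the log2 fold change was 0.72 ± 0.08 (edgeR adjusted p = 0.000286). An unclassified transcript on the other strand, *D330025C20Rik*, shares 272 bases (9.10%) of the exons of *Kcng2*, and the way strand was handled in the counts is not given in the sources used here. No other silent subunit was high enough for the test. *Kcnf1*, *Kcng4* and *Kcnv2* had at most 12 counts in any library.

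The delayed rectifier genes include the ERG pore *Kcnh2* and the slow pore *Kcnq1* with its accessory subunit *Kcne1*. *Kcnh2* (chr5:24319589-24351684) had 1222 and 1064 normalized counts in Ctrl hearts and 1551 and 1514 in *miR-128*OE hearts. It was higher in *miR-128*OE hearts without overlap (log2 fold change 0.42 ± 0.09, edgeR adjusted p = 0.00721, and 0.0810 without WH9). *Kcnq1* had 281 and 307 against 346 and 372 normalized counts. Its groups did not overlap either, but it did not pass the threshold (log2 fold change 0.29, interval 0.035 to 0.55, edgeR adjusted p = 0.0804). *Kcnq1* shares 121 bases (2.96%) of its exons with the long noncoding *Kcnq1ot1*. *Kcne1* had 1191 and 1635 against 1337 and 1481 normalized counts, and its Ctrl libraries enclosed both *miR-128*OE values (interval -0.30 to 0.30). *Kcne2*, a subunit that joins ERG pores, had 2, 2, 5 and 3 counts and was not tested.

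Among the other accessory subunits, *Kcne4*, which encodes a partner of KCNQ1 channels, was higher and *Kcnab1*, a cytoplasmic beta subunit of Kv1 channels, was lower. *Kcne4* (chr1:78816911-78820032) had 63.1 and 36.7 normalized counts in Ctrl hearts and 84.2 and 124 in *miR-128*OE hearts. Its libraries varied within each condition as well, and its log2 fold change was 1.02 ± 0.30 (edgeR adjusted p = 0.0275). The value was 0.73 without WH8 and also 0.73 without WH10, and lost the call in both fits (edgeR adjusted p = 0.0573 and 0.212). *Kcnab1* (chr3:64949212-65378225) had 144 and 109 against 67.3 and 74.9 normalized counts. Its log2 fold change was -0.84 ± 0.21 (edgeR adjusted p = 0.0145), and an antisense gene shares 201 bases (2.34%) of its exons. It kept its direction but lost the call without WH7, WH9 or WH10 (edgeR adjusted p = 0.0736, 0.119 and 0.0654) and with DESeq2 (adjusted p = 0.0524). *Kcnrg*, which encodes a soluble protein that holds back Kv channels, had 16.5 and 15.5 against 9.90 and 2.52 normalized counts. It had the largest fold change of the tested channel genes that did not pass (log2 fold change -1.41). It was the only one of the 48 that passed the filter on low counts through 1 condition alone. That condition was Ctrl, where it is high, so its value is no support and no interval or p-value is given for it. The next largest among the genes that did not pass were *Kcnc4*, a Kv3.4 pore, and *Kcna2*, a Kv1.2 pore. *Kcnc4* had 14.6 and 14.1 against 11.9 and 4.21 normalized counts, and *Kcna2* had 42.1 and 42.4 against 21.8 and 28.6. Neither passed the threshold (edgeR adjusted p = 0.257 and 0.0997).

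Inward rectifiers of the Kir2 family carry the strong rectifying current that holds the resting potential. *Kcnj2* (chr11:111066164-111076825), the Kir2.1 pore, had 251 and 246 normalized counts in WH7 and WH8 and 577 and 533 in WH9 and WH10. Libraries of 1 condition lay close together and far from the other condition, with a log2 fold change of 1.16 ± 0.11 (edgeR adjusted p = 0.000128). *Kcnj12*, the Kir2.2 pore, had 248 and 235 against 316 and 300 normalized counts. Its groups did not overlap and its log2 fold change of 0.35 (interval 0.082 to 0.62) fell just short of the threshold (edgeR adjusted p = 0.05003). *Kcnj4*, the Kir2.3 pore, was rare, with 11, 2, 10 and 13 counts and an interval of -0.78 to 1.89. Within libraries, *Kcnj2* took 50.3% and 51.2% of the counts on *Kcnj2* and *Kcnj12* in Ctrl hearts (exact 95% intervals 46.0 to 54.6 and 45.7 to 56.6) and 64.6% and 64.0% in *miR-128*OE hearts (61.4 to 67.8 and 60.9 to 67.0). No interval of a *miR-128*OE library overlapped one of a Ctrl library, but these intervals leave out the spread between libraries.

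ATP-sensitive channels join a Kir6 pore with a sulfonylurea receptor and open when ATP falls. *Kcnj11* (chr7:46097123-46100952), the Kir6.2 pore of cardiomyocytes, had 614 and 629 normalized counts in Ctrl hearts and 855 and 808 in *miR-128*OE hearts, with a log2 fold change of 0.42 ± 0.09 (edgeR adjusted p = 0.00606, and 0.0856 without WH9). *Kcnj8*, the Kir6.1 pore known from vascular smooth muscle and pericytes, had 345 and 418 against 372 and 368, with an interval of -0.31 to 0.24. The receptors moved in opposite directions. *Abcc8*, which encodes SUR1, had 959 and 875 against 490 and 585 normalized counts (log2 fold change -0.77 ± 0.11, edgeR adjusted p = 0.000835). *Abcc9*, which encodes SUR2, had 1770 and 2161 against 2793 and 2488 (log2 fold change 0.43 ± 0.11, edgeR adjusted p = 0.0145, and 0.137 without WH9). *Abcc8* thus made up 35.1% and 28.8% of the counts on both receptors in Ctrl hearts and 14.9% and 19.0% in *miR-128*OE hearts. The exact 95% intervals did not overlap between conditions, but they leave out the spread between libraries.

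**Figure D2:**
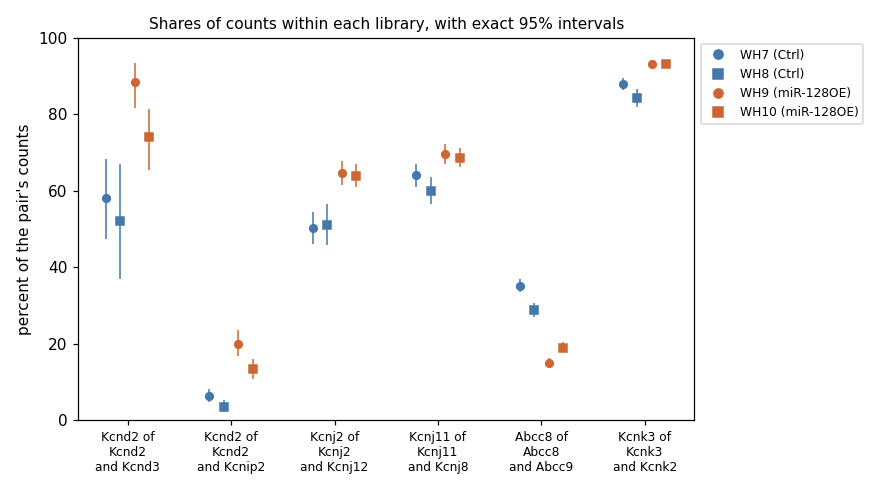
Percent of the counts on a pair of genes that fell on the first of them, in each library. Bars are exact 95% intervals that leave out the spread between libraries. *Kcnd2*, *Kcnj2*, *Kcnj11* and *Kcnk3* took larger shares of their pairs and *Abcc8* a smaller one in both *miR-128*OE libraries, and the shares are of counts and not per length.

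The acetylcholine-activated channel of atrial and nodal cells is built from GIRK1 and GIRK4. *Kcnj3*, which encodes GIRK1, had 629 normalized counts in WH7, 188 in WH8, 456 in WH9 and 535 in WH10. The noncoding *Gm26794* on the other strand shares 1621 bases (31.1%) of its exons, so its counts are uncertain. The low value stood in 1 Ctrl library, and the log2 fold change of 0.23 (interval -0.61 to 1.08) did not pass the threshold. Without WH8 the value was -0.34 (edgeR adjusted p = 0.0346), and without WH7 it was 1.40 (edgeR adjusted p = 1.26e-05), so its direction was set by which Ctrl library was kept. *Kcnj5*, which encodes GIRK4, had 778 and 594 against 627 and 697 normalized counts (interval -0.35 to 0.23). *Kcnj3* took 24.1% of the counts on both genes in WH8 and 42.1% to 44.7% in the other 3 libraries. The atrial marker list (*Nppa*, *Myl4*, *Myl7*, *Sln* and *Bmp10*) summed to 69289 normalized counts in WH7, 8266 in WH8, 24846 in WH9 and 31914 in WH10. By edgeR and DESeq2, 0 of its 5 genes passed the threshold, as at an unadjusted p under 0.05 in edgeR. Of all genes tested in edgeR, 16.5% were higher and 15.0% lower. None of the atrial markers was at 0, and the part of this list in these results was not tested.

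**Figure D3:**
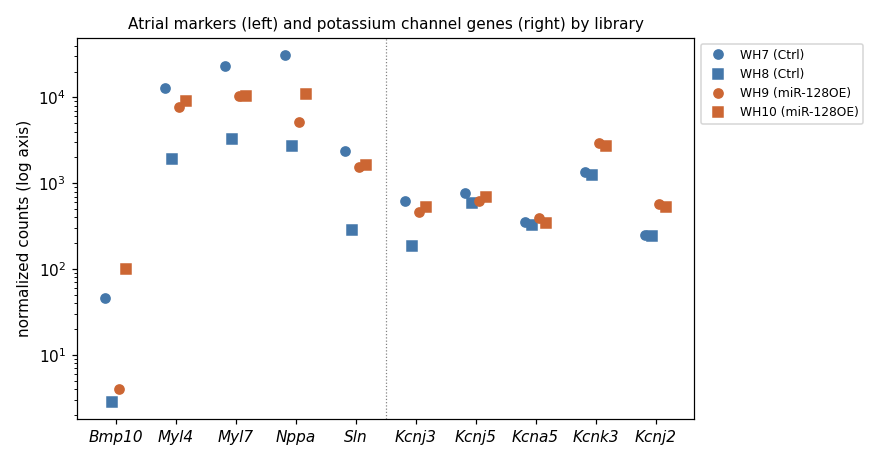
Normalized counts (log axis) of the 5 atrial marker genes and of 5 potassium channel genes in each library. WH8 was lowest for *Kcnj3* and for each atrial marker, while *Kcnk3* and *Kcnj2* had close values in WH7 and WH8 and higher ones in both *miR-128*OE libraries.

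Two-pore-domain channels carry background potassium current. *Kcnk3* (chr5:30588170-30625270), the acid-sensitive TASK-1 channel, had 1349 and 1232 normalized counts in WH7 and WH8 and 2908 and 2692 in WH9 and WH10. It had the smallest p-value of the channel genes, with a log2 fold change of 1.11 ± 0.09 (edgeR adjusted p = 4.93e-05). *Kcnk2*, the mechanosensitive TREK-1 channel, had 184 and 229 against 211 and 196 normalized counts, with an interval of -0.35 to 0.33, and shares 604 bases (12.2%) of its exons with an antisense gene. *Kcnk3* took 88.0% and 84.3% of the counts on both genes in Ctrl hearts and 93.2% in each *miR-128*OE library. A transcript on the other strand, *Gm9899*, shares 229 bases (5.76%) of the *Kcnk3* exons. *Kcnk3* is also known from atrial cells and brown fat. The atrial marker sums of WH7, WH8, WH9 and WH10 were 69289, 8266, 24846 and 31914 normalized counts. The brown fat list (*Ucp1*, *Cidea*, *Adipoq*, *Plin1* and *Elovl3*) summed to 390 and 393 normalized counts in Ctrl hearts and 841 and 639 in *miR-128*OE hearts. Of its 4 tested genes 3 were higher (75%) and 0 lower, against 16.5% and 15.0% of all genes tested. *Ucp1* had 51.2 and 4.24 against 251 and 159, and *Elovl3* had 1 count in each library. The parts of atrial cells and of brown fat in the *Kcnk3* result were not tested.

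Small-conductance calcium-activated channels couple calcium to repolarization. *Kcnn1* (chr8:70843158-70865691), the SK1 channel, had 64.0 and 96.1 normalized counts in Ctrl hearts and 37.6 and 29.4 in *miR-128*OE hearts, with a log2 fold change of -1.24 ± 0.30 (edgeR adjusted p = 0.0126). Without WH9 or WH10 its call was lost (edgeR adjusted p = 0.0523 and 0.0967), and an unclassified transcript on the other strand shares 132 bases (2.88%) of its exons. *Kcnn2*, the SK2 channel, had 79.6 and 90.4 against 57.4 and 81.6, and *Kcnn3*, the SK3 channel, had 38.4 and 50.9 against 46.5 and 41.2. Both overlapped between conditions, with intervals of -0.82 to 0.27 and -0.65 to 0.63. *Kcnn4* (chr7:24369826-24385212), an intermediate-conductance channel of blood, endothelial and smooth muscle cells, had 16, 8, 24 and 48 counts. It was higher in *miR-128*OE hearts at this low depth (log2 fold change 1.28 ± 0.42, edgeR adjusted p = 0.0428), but in 7 of 13 alternatives, among them each library left out, it did not pass the threshold. The large-conductance pore *Kcnma1* had 13, 4, 3 and 10 counts and was not tested.

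Levels between genes were compared as normalized counts per kilobase of exon. In Ctrl hearts the order was led by *Kcne1* (440 ± 97.8, SD, n = 2), *Kcnk3* (325 ± 20.7), *Kcng2* (263 ± 2.06), *Kcnip2* (240 ± 38.2) and *Kcnh2* (236 ± 23.0). *Kcne1* and *Kcnk3* did not differ beyond their spread, nor did *Kcng2* and *Kcnip2* or *Kcnip2* and *Kcnh2*. In *miR-128*OE hearts it was led by *Kcnk3* (704 ± 38.5), *Kcne1* (438 ± 31.8), *Kcng2* (433 ± 2.89) and *Kcnh2* (316 ± 5.33), where *Kcne1* and *Kcng2* did not differ beyond their spread. *Kcnip2* stood at place 4 in Ctrl and place 8 in *miR-128*OE hearts (136 ± 9.51), and *Kcnj2* at place 13 (45.6 ± 0.602) and place 11 (102 ± 5.71). *Kcnj11* followed *Kcnh2* in both conditions, with 169 ± 2.95 and 226 ± 9.04. *Kcnd2*, although higher, stayed below all of these. The 10 highest genes took from 77.2% to 81.1% of the summed level per kilobase in each library.

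**Figure D4:**
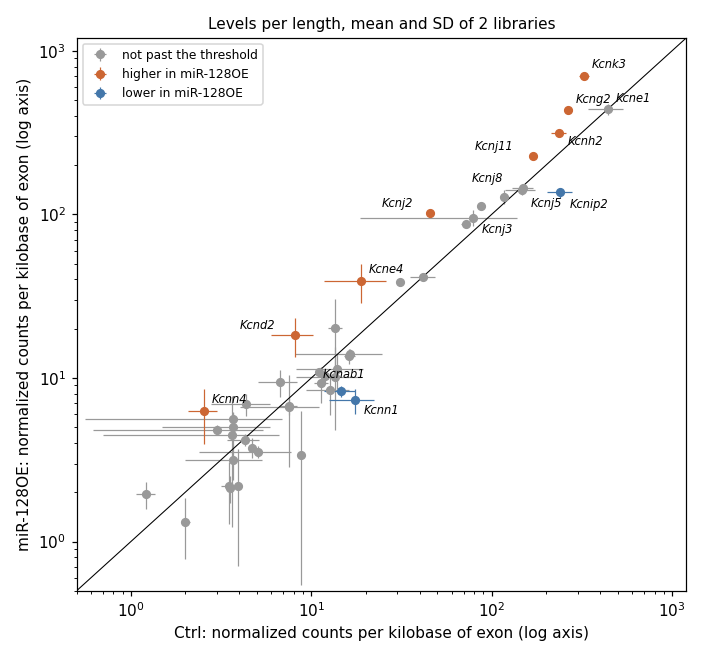
Normalized counts per kilobase of exon of the tested potassium channel genes reported here, in Ctrl (horizontal log axis) and *miR-128*OE hearts (vertical log axis), as means with the SD of 2 libraries, and with the line of equal levels. *Kcnk3* and *Kcnj2* lie above the line and *Kcnip2* below it, while *Kcne1* lies on it at 440 and 438.

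The 19 channel genes below the filter had from 10 to 42 counts in all. They included 3 of the 4 EAG, ERG and ELK genes, 3 of the 4 silent subunits and 5 of the 9 two-pore-domain channels. Their differences between conditions were not detectable at this depth. *Kcnk13* was the highest of them, with 9, 3, 19 and 11 counts.

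Seed matches of *miR-128* were found in channel genes of both directions. A match was present in 24 of the 67 channel genes (35.8%) and in 17 of the 48 tested (35.4%), against 31.0% of 13452 tested genes with a 3′UTR. The median 3′UTR length was 1704 bases for the tested channel genes and 1200 bases for all genes, and longer 3′UTRs offer more matches. Among the higher genes 3 of 8 held a match (*Kcnd2*, *Kcne4* and *Kcnh2*), and among the lower genes 1 of 3 (*Kcnab1*). *Kcnc2*, a Kv3.2 pore with 49.4 and 22.6 against 23.8 and 26.9 normalized counts, held 3 matches of 8 bases and was not past the threshold. Tested channel genes with a match had a median log2 fold change of -0.060 and those without one 0.12, which was not tested. The same medians over all tested genes with a 3′UTR were -0.015 and 0.0012. The precursor gene *Mir128-2* had 0, 0, 2 and 10 counts and *Mir128-1* had 0 in every library, and mature *miR-128* was not measured in these data.

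Genes outside the Kcn family that act with potassium channels were counted in the same fit. Of 12 non-Kcn subunits and partners, 8 were tested, with 2 higher (25%), 2 lower (25%) and a median of -0.30 on the log2 scale. All genes tested had 16.5% higher, 15.0% lower and a median of -0.014. This difference between lists was not tested. Beside *Abcc8* and *Abcc9*, *Akap9*, an anchor of protein kinase A on KCNQ1, fell by 0.58 on the log2 scale, from 2493 and 2424 to 1644 and 1657 normalized counts (edgeR adjusted p = 0.000677). With an offset for GC content and exon length its log2 fold change was -0.36 (edgeR adjusted p = 0.00745). *Lrrc52*, a leucine-rich subunit of large-conductance channels, had 1, 0, 18 and 18 counts. Its ratio of 36 counts to 1, scaled by library size, was 29.5, with an exact 95% counting interval from 4.97 to 1197. It passed the filter on low counts through the *miR-128*OE libraries alone, where it is high, so its place among the 2 higher partners is no support and no p-value is given for it.

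Potassium pumps and cotransporters move potassium into the cell against its gradient, and 12 of 16 were tested, with a median of 0.27 on the log2 scale. In edgeR 4 were higher (33.3%) and 0 lower, against 16.5% and 15.0% of all genes tested. DESeq2 called 3 higher and 0 lower. At an unadjusted p under 0.05 in edgeR 5 were higher and 0 lower, against 3115 and 3014 of all 14266 genes. The difference of this list from all genes was not tested. Among its higher genes were the sodium-potassium pump beta subunits *Atp1b1* and *Atp1b3* and the pump regulator *Fxyd1*. *Atp1b1* had 1596 and 1401 against 3985 and 3361 (log2 fold change 1.29 ± 0.11, edgeR adjusted p = 7.08e-05). *Fxyd1* and *Atp1b3* had log2 fold changes of 0.41 and 0.31 (edgeR adjusted p = 0.00513 and 0.0272). *Fxyd1* lost the call without WH10 (edgeR adjusted p = 0.0717) and *Atp1b3* in 8 of 14 alternatives.

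The calcium, sodium and pacemaker channel subunits (Cacn, Scn and Hcn genes), the channel family most like this one, had 27 of 34 genes tested. Of these, 4 were higher (14.8%) and 8 lower (29.6%), with a median of 0.031 on the log2 scale. Over all genes tested, 16.5% were higher and 15.0% were lower. DESeq2 called 4 higher and 3 lower among them. The difference from the 8 higher and 3 lower potassium channel genes was not tested.

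In RNA of heart tissue, fewer cells of a type and less RNA per cell cannot be told apart. The cardiomyocyte list summed to 395694 and 403172 normalized counts in Ctrl hearts and 551906 and 532850 in *miR-128*OE hearts, with 4 of its 7 genes higher and *Ryr2* lower. The smooth muscle and pericyte list summed to 23758 and 21977 against 27851 and 32120, with 2 of 8 higher and 1 lower, and the endothelial list to 16503 and 16401 against 18649 and 17369, with 2 of 6 higher and 1 lower. The fibroblast list summed to 66739 and 43152 against 53204 and 59095, with 1 of 6 higher. The Schwann cell and neuron list summed to 598 and 531 against 512 and 503, with 1 of 7 tested genes higher and 1 lower, and the immune list to 666 and 523 against 490 and 493, with 0 of 5 called. Beside these calls, 16.5% of all genes tested were higher and 15.0% lower. No defining marker of the tested lists was at 0 in all libraries, and the part of these lists in the channel results was not tested. Fold changes also moved with gene length. Over all tested genes, the median was 0.10 among the shortest 25% by exon length and -0.10 among the longest 25%. In the same ranges it was 0.35 for only 9 tested channel genes and -0.32 for only 11. After an offset for GC content and exon length, all 8 higher and 3 lower channel genes remained past the threshold.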

How the data were processed

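RNA-seq libraries of P7 mouse hearts were analyzed, 2 Ctrl and 2 *miR-128*OE. Per the study's methods, reads that passed a quality filter were aligned with TopHat2 to mm10, and the authors deposited raw counts per known gene. Gene models, strand and multi-mapping rules are not given in the sources used here.

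Entrez Gene identifiers were matched to RefSeq symbols of GRCm38.p6 (24374 of 24454) or GENCODE (6). Exon lengths and 3′UTRs came from GENCODE for GRCm38. Counts were tested in edgeR 4.0.16 (R 4.3.3) with filterByExpr (minimum 10 counts), TMM factors and the quasi-likelihood test, with a Benjamini-Hochberg threshold of 0.05. Prior degrees of freedom were 7.44 and the common biological variation 8.78%. An SE is the fold change over the root of F. Python 3.11.15 with scipy 1.17.1 gave intervals. The test was checked on simulated counts. Alternatives were other factors, filters and tests, DESeq2 1.42.0, each library left out and, added after the data were seen, an offset for GC content and exon length.

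Members and lists were chosen with earlier results of these data known. Named were all channel genes past the threshold (at most 25), all tested genes of the cardiac current lists, the 3 largest fold changes among the rest, and at most 8 partners past the threshold. *Kcnc2*, *Kcnk13*, markers and genes below the filter were chosen after their values were seen. Some genes under this rule are counted in the lists but not reported here.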

Additional observations from a re-analysis of the deposited data

How the results depend on the processing

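No paired analysis was possible because the labels number the libraries without tying Ctrl to *miR-128*OE libraries. *Kcnk3* and *Kcnj2* were past the threshold in all 14 alternatives and *Kcng2* and *Kcnip2* in 13 of 14. Tested against a 1.5-fold change, 2 channel genes were higher and 0 lower, of 249 and 216 genes in all. With each library left out in turn, from 4 to 10 channel genes were higher, from 1 to 5 were lower, and their median log2 fold change ran from -0.011 to 0.18. In these fits a lone library is assumed to vary like the other condition. Without WH9, *Kcnab1*, *Kcnd2*, *Kcnh2*, *Kcnj11*, *Kcnn1* and *Kcnn4* lost the call, and without WH10 *Kcnab1*, *Kcne4*, *Kcnn1* and *Kcnn4*. Without WH7 *Kcnab1* and *Kcnn4* lost it, and without WH8 *Kcne4* and *Kcnn4*. *Kcnj3* reversed to -0.34 without WH8 and was 1.40 without WH7. Scaling by total counts moved the median of all genes to -0.11 and that of the channel genes to -0.11, with 1611 higher and 2948 lower genes in all. DESeq2, which tested all 67 channel genes, gave them a median of 0.12 and lost *Kcnab1* and *Kcnn4*. *Kcnj12* was past the threshold in 5 of 14 alternatives. With 2 libraries per condition and totals near those given, low genes such as *Kcnn4*, *Kcnd3* and *Kcnj4* carry wide intervals.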

Other observations

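Some Kcn genes fell outside the rule. *Kcnq1ot1*, the long noncoding RNA within *Kcnq1*, had 7930 and 8349 normalized counts in Ctrl hearts and 3347 and 4116 in *miR-128*OE hearts (log2 fold change -1.13 ± 0.11, edgeR adjusted p = 0.000150), while *Kcnq1* itself had 281 and 307 against 346 and 372. The X-linked *Kcnd1*, the Kv4.1 pore, had 60.3 and 52.3 against 30.7 and 27.8 (log2 fold change -0.96 ± 0.28, edgeR adjusted p = 0.0271), in libraries where sex and genotype cannot be told apart.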
